A study of Mus musculus with 27 samples.

Results

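The genes described here are 10 genes of smooth muscle and of stress fibres, *Acta2*, *Actg2*, *Tagln*, *Cnn1*, *Cald1*, *Tpm1*, *Tpm2*, *Myh11*, *Myh9* and *Myl9*, chosen by their symbols from the 37310 genes of the RNA-seq count table. The study deleted the locus of the long non-coding RNA *Firre* on chromosome X and sequenced RNA of wild-type (WT) and *Firre* knockout (KO) mouse embryonic fibroblasts (MEFs). The paper used this RNA-seq to check that *Firre* was no longer transcribed, and its methods describe a test of differential expression. MEFs are primary cultures of connective tissue cells, and these were grown from single mid-gestation embryos without head, limbs and viscera, frozen as individual lines and used at low passage. The 12 libraries form 4 groups of 3 replicates, namely female WT, female *Firre* KO, male WT and male *Firre* KO. The KO MEFs came from mice in which recombination between loxP sites removed the whole *Firre* gene, and the WT MEFs carry no deletion. No treatment is named for these libraries. The sources do not say whether the replicates of a group came from separate embryos, so the p-values below measure only the spread between these samples, which may be technical.

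Contraction in smooth muscle, and in the stress fibres of fibroblasts, is produced by bundles of actin filaments that myosin II filaments slide along. Tropomyosins, calponin, transgelin and caldesmon bind along the actin filament, and phosphorylation of the myosin regulatory light chain switches the motor on. Fibroblasts that express smooth muscle α-actin are called myofibroblasts, a state known from wound healing and from culture on stiff plastic. Many genes of this kind are transcribed through serum response factor (SRF), which binds a sequence called the CArG box, and some also through TEAD factors, which bind a sequence called MCAT.

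The 250 bases before the transcription start of 4 of the genes are shown because they differ in these motifs while their genes are all among those on which the results turn. The sequences were read from RefSeq on GRCm38.p6, a later build than the one used for the gene positions below, and 7 of the 10 genes had an entry, with 2 starts for *Cald1*. *Tagln*, *Actg2* and *Myh11* had none. Each line runs 5′ to 3′ toward the start. Capitals mark CArG boxes with at most 1 base off and MCAT motifs (CATTCC), both searched on both strands, and no marked motif overlaps another. The windows are chr19:34255374-34255623 (minus strand) for *Acta2*, chr2:156775214-156775463 (plus strand) for *Myl9*, chr9:67049214-67049463 (minus strand) for *Tpm1* and chr9:22099003-22099252 (plus strand) for *Cnn1*.
Acta2: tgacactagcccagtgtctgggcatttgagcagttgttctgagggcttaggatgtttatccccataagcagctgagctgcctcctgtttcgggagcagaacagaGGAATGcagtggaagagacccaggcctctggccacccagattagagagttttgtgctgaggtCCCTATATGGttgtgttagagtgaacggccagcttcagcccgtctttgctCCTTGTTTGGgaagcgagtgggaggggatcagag
Myl9: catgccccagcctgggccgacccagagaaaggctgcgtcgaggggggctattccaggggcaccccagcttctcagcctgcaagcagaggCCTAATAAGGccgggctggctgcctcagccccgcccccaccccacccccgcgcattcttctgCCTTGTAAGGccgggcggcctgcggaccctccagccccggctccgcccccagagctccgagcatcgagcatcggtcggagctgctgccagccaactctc
Tpm1: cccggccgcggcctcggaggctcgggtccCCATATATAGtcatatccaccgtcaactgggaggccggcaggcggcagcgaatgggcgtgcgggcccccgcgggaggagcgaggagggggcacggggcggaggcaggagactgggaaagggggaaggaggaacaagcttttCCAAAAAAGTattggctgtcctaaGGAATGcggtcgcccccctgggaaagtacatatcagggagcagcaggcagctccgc
Cnn1: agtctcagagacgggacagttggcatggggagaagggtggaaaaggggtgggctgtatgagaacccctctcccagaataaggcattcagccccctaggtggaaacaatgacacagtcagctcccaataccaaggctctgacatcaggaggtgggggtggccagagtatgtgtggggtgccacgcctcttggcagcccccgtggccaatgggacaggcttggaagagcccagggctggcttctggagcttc

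*Myl9* held the one CArG box with no base off among these genes, beginning 161 bases before the start, and a second with 1 base off 99 bases before it. *Acta2* held CArG boxes with 1 base off at 84 and 34 bases before the start and an MCAT motif at 146. *Tpm1* held such boxes at 221 and 80 bases before the start and an MCAT motif at 56. One of the *Cald1* starts had a box with 1 base off at 203 bases and an MCAT motif at 153. The windows of *Cnn1*, *Tpm2*, *Myh9* and the other *Cald1* start held neither motif in these letters. Of 32851 promoter windows of the same length in the RefSeq table, 1.63% held an exact CArG box, 21.1% at least 1 with at most 1 base off, 3.7% such boxes at 2 or more places, and 14.7% an MCAT motif. A match describes the letters and is not a measured binding site.

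The depth ranged from 42986516 to 65454660 expected counts per library, and the 10 genes together took 2.233% to 2.681% of the counts of a library. Levels below are CPM, the counts of a gene scaled to a common library total, after TMM scaling, which corrects for library composition. *Firre*, listed as 6720401G13Rik, had 0 counts in all 6 KO libraries. Replicates within each group were further apart than sampling noise, with a chi-square per degree of freedom of 7.546 to 16.562 in 8 pairs and of 37.805 to 45.072 in the 4 pairs that include a male replicate 3. The male WT replicate 3 and male KO replicate 3 libraries thus stand apart from the other male libraries, and results that rest on them are given with and without them. The fibroblast markers *Vim*, *Col1a1* and *Col1a2* were abundant in every library, with medians of 5237, 3033 and 2045 CPM. They are the highest of a list of 10 fibroblast markers, of which 5 averaged at least 100 CPM, while *Dcn* (3.93 to 22.5 CPM), *Fap* (2.42 to 6.74 CPM), *Pdgfra* (7.13 to 56.1 CPM) and *Twist2* (12.9 to 27.4 CPM) were low. Of the 6 smooth muscle markers, *Cnn1*, *Lmod1*, *Smtn* and *Myh11* had medians of 254, 151, 113 and 76.4 CPM, while *Des*, an intermediate filament gene, had 25.5 CPM and *Myocd*, the SRF coactivator of smooth muscle, 2.33 CPM. These markers and the stress fibre genes were measured in bulk, where fewer cells of a type and less RNA per cell cannot be told apart.

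Smooth muscle α-actin and transgelin were the most abundant of the group per exon length. Levels were compared between genes per length, as approximate TPM (CPM divided by merged exon length and rescaled). Merged exon length takes in every annotated exon, 6485 bases over 21 transcripts for *Tpm1* and 1586 bases over 1 for *Tagln*. It can therefore place genes with many transcripts too low. In CPM, without length, *Tpm1* averaged 3948 and *Tagln* 3926, so their order depends on the length used. *Acta2*, which encodes smooth muscle α-actin, averaged 11656 TPM over the 12 libraries and ranked 2 among the genes that passed the filter on low counts. *Tagln*, the actin-binding protein transgelin or SM22α, averaged 6979 TPM and ranked 9. Next came *Tpm1* with 1716 TPM, *Myl9* with 1612 TPM and *Cald1* with 1240 TPM, followed by *Myh9* with 721 TPM, *Tpm2* with 705 TPM, *Actg2* with 614 TPM and *Cnn1* with 314 TPM. *Myh11*, the smooth muscle myosin heavy chain and a late differentiation gene, was far below them at 30.6 TPM and ranked 4557. On the same scale the non-muscle heavy chain gene *Myh9* was therefore well above the smooth muscle heavy chain gene *Myh11* in these cultures. Neighbours in this order whose ranges over the libraries overlapped were *Tpm1* and *Myl9*, *Myl9* and *Cald1*, *Myh9* and *Tpm2*, *Tpm2* and *Actg2*, and *Actg2* and *Cnn1*. *Acta2* was above *Tagln* in 12 of 12 libraries by 0.74 ± 0.07 on the log2 scale (SD), and *Tpm1* was above *Myl9* in 9 of 12.

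**Figure D1:**
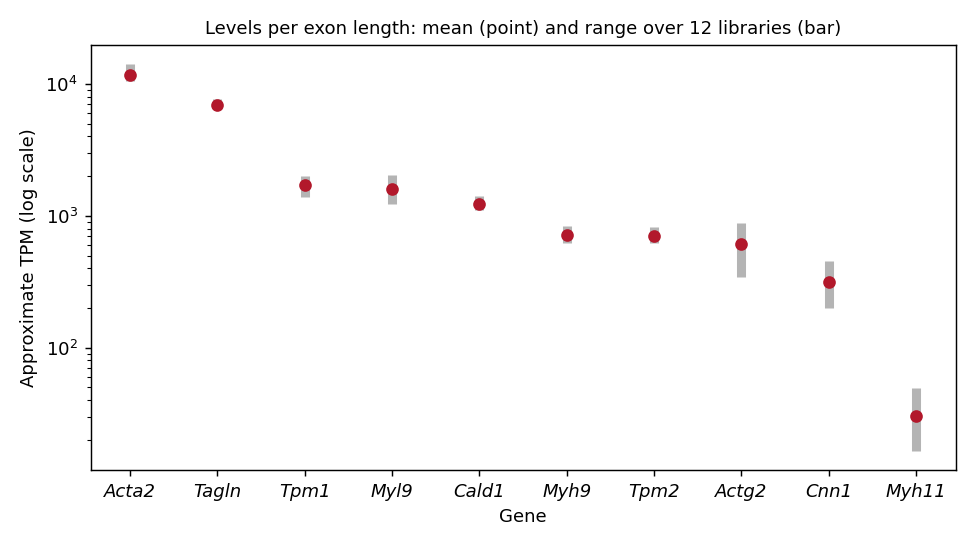
Approximate TPM (log scale) of each gene, with the mean over 12 libraries as a point and the lowest to highest library as a bar. *Acta2* and *Tagln* stand at 11656 and 6979, most others between 314 and 1716, and *Myh11* at 30.6.

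The genes differed widely in how much they varied from library to library. The coefficient of variation of CPM over the 12 libraries was 6.14% for *Cald1*, 6.77% for *Tagln* and 6.96% for *Tpm2*, and 22.8% for *Actg2*, 31.1% for *Cnn1* and 33.6% for *Myh11*. The highest library was 1.24-fold above the lowest for *Cald1* and 2.86-fold for *Myh11*. The least abundant genes per length thus had the highest coefficients. These pool both sexes and genotypes, so they include differences between groups as well as between replicates. For *Cnn1* the female libraries had 165 to 240 CPM and the male ones 268 to 382 CPM. Its SD within a group ran from 8.98 CPM in female KO to 54.9 CPM in male WT MEFs. *Acta2* and *Myh9* lay between, at 10.2% and 9.94%.

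**Figure D2:**
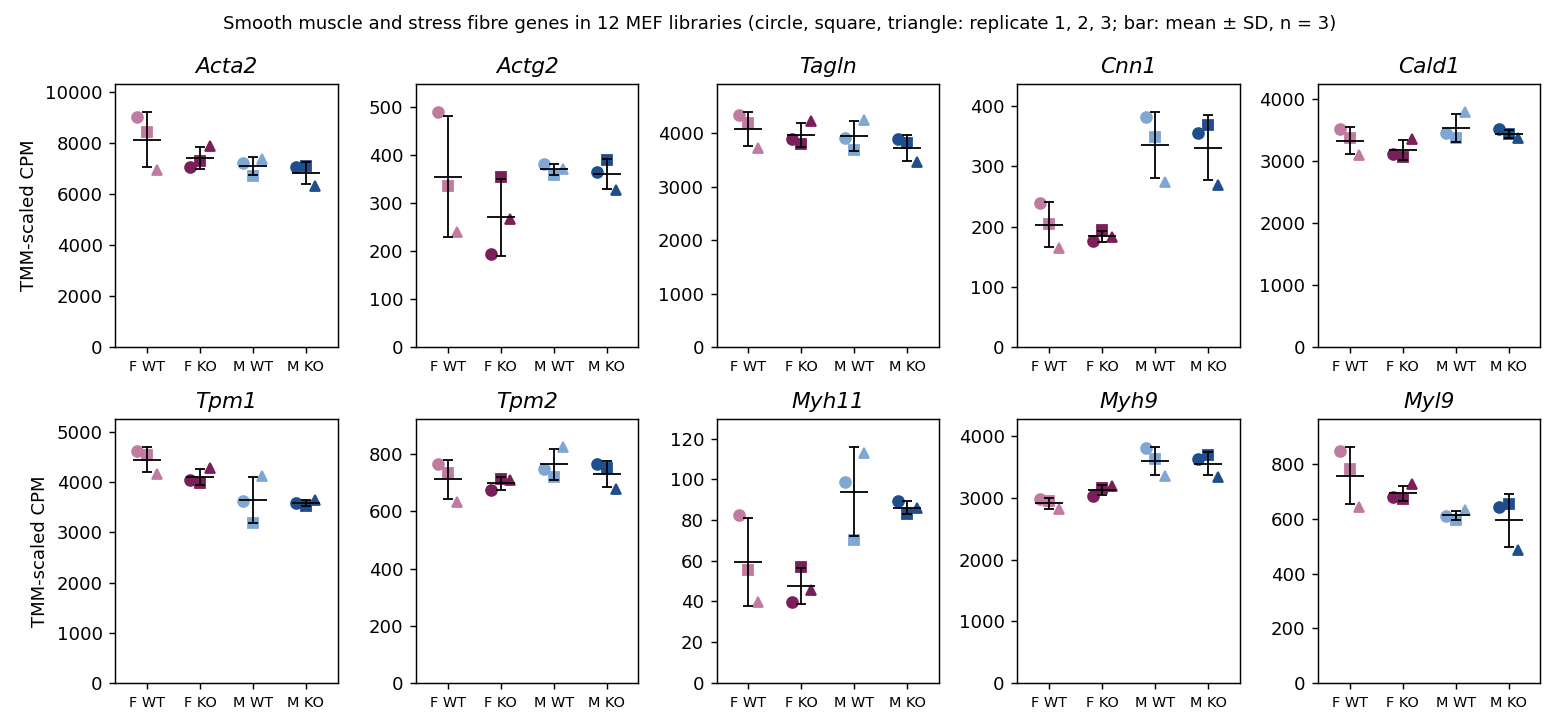
TMM-scaled CPM of the 10 genes in each library, by group (F, female; M, male), with symbols for replicates 1, 2 and 3 and the mean ± SD (n = 3) as a bar; every vertical axis starts at 0. The female and male libraries separate for *Cnn1* and *Myh9*, whereas WT and KO overlap in both sexes except for *Myh9* in female MEFs.

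Whether loss of *Firre* changes the contractile genes was asked within each sex. All 10 genes passed the filter on low counts and were tested among 15387 genes. In female MEFs none of the 10 passed an adjusted p of 0.05 (edgeR, quasi-likelihood test, Benjamini-Hochberg adjustment), against 0.013% of all genes tested. None passed an unadjusted p of 0.05 either, where 7.55% of all genes did, and DESeq2 also called 0 of the 10. The fitted log2 fold changes ran from -0.39 to 0.10 with a median of -0.12, beside a median of -0.00032 over all genes, and 9 of 10 were below 0, where 50.1% of all genes were.

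*Acta2* had 9024, 8437 and 6922 CPM in the female WT libraries and 7048, 7311 and 7866 CPM in the female KO libraries. *Actg2*, the γ-actin of visceral smooth muscle, had 490, 336 and 240 CPM in female WT and 194, 354 and 266 CPM in female KO. For both, female WT replicate 1 was the highest library of the study and female WT replicate 3 lay within or below the KO range, so the groups overlapped. The log2 fold change of *Acta2* was -0.13 (SE 0.088, 95% interval -0.33 to 0.06), and that of *Actg2* was -0.39 (SE 0.24, -0.91 to 0.13). *Myh11* had 82.5, 55.5 and 39.8 CPM in female WT and 39.5, 57.1 and 45.8 CPM in female KO, again with the highest value in WT replicate 1. Its log2 fold change was -0.32 (SE 0.24, -0.85 to 0.21). Without female WT replicate 1 the log2 fold change was -0.052 for *Acta2*, -0.086 for *Actg2* and -0.0035 for *Myh11*. Over all single libraries left out it ran from -0.24 to -0.052, from -0.63 to -0.086 and from -0.54 to -0.0035.

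*Myh9* was the exception in direction. This gene for the heavy chain of non-muscle myosin IIA had 2989, 2949 and 2818 CPM in female WT and 3040, 3160 and 3196 CPM in female KO. Every KO library was above every WT library, which was the case in either direction for 19.1% of all genes tested. The log2 fold change was 0.10 (SE 0.053, 95% interval -0.01 to 0.22), with an unadjusted p of 0.081 and an adjusted p of 0.694 by the edgeR test. *Tagln*, *Cnn1*, *Cald1*, *Tpm1*, *Tpm2* and *Myl9*, the regulatory light chain gene, had log2 fold changes between -0.14 and -0.03, and their groups overlapped. With single libraries left out *Cnn1* ran from -0.27 to -0.0031 and *Myl9* from -0.23 to -0.040, with the value nearest 0 without female WT replicate 1 in both.

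In male MEFs none of the 10 genes passed an adjusted p of 0.05 by the same edgeR test, against 0.0065% of all genes, and none passed an unadjusted p of 0.05, where 2.06% of all genes did. DESeq2 called 0 of the 10. All 10 log2 fold changes were below 0, as were 52.3% over all genes, between -0.13 and -0.02 with a median of -0.04, beside -0.0041 over all genes. WT and KO overlapped for all 10, and 5.29% of all genes did not overlap. *Acta2* had 7233, 6715 and 7380 CPM in male WT and 7058, 7080 and 6321 CPM in male KO, with the lowest value in KO replicate 3. *Tagln* had 3903, 3680 and 4245 CPM in male WT and 3892, 3816 and 3450 CPM in male KO. The common sign rested on replicate 3, in which WT was the highest and KO the lowest library of its group for *Acta2*, *Tagln*, *Myl9*, *Tpm2* and *Cald1*. Without both male replicate 3 libraries 8 of the 10 log2 fold changes were above 0, among them *Acta2* at 0.016, *Tagln* at 0.020, *Tpm1* at 0.059 and *Myl9* at 0.10.

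Whether the KO acted differently in female and male MEFs was tested directly as an interaction. None of the 10 genes passed, where 0.0% of all genes did, and none passed an unadjusted p of 0.05, where 3.19% of all genes did. The smallest unadjusted p of the 10 was 0.144, for *Myh9*, and DESeq2 called 0 of the 10. The intervals leave room for moderate changes in the variable genes. For *Actg2* the 95% interval in male MEFs ran from -0.56 to 0.48, whereas for *Tagln* it ran from -0.24 to 0.08 in male and from -0.20 to 0.12 in female MEFs.

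**Figure D3:**
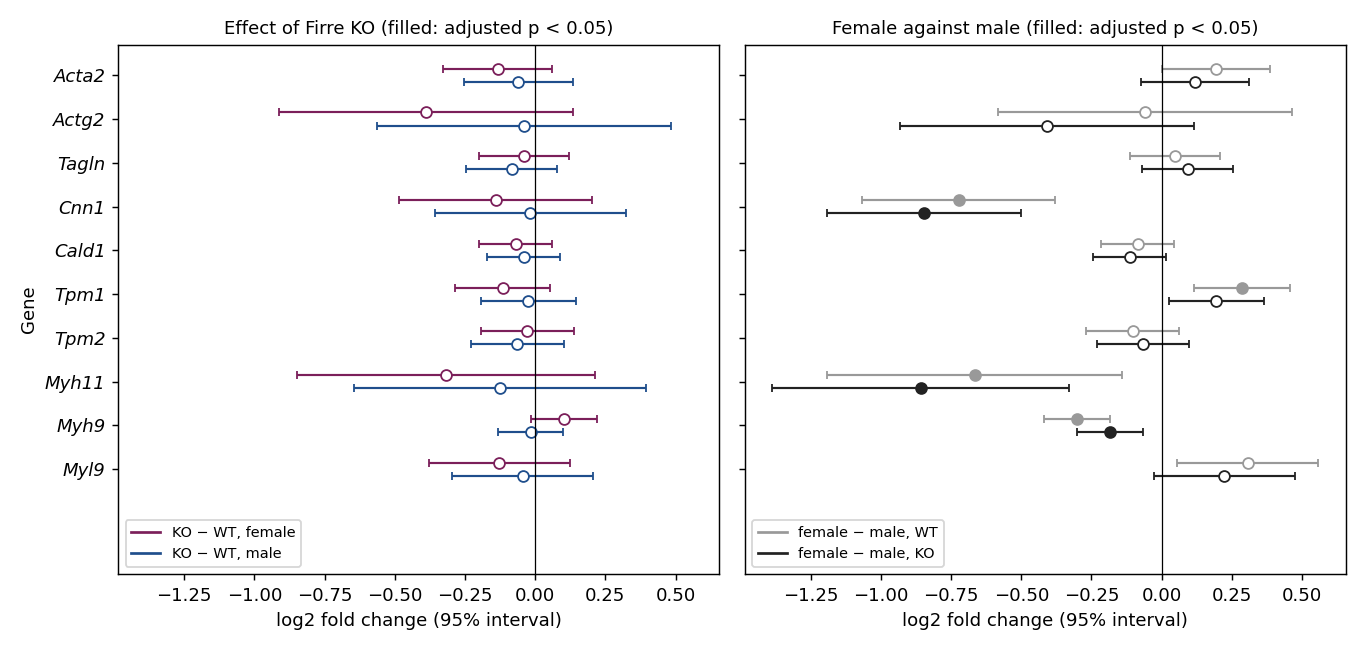
Log2 fold changes (points) with 95% intervals (bars) from the edgeR fit for KO against WT in each sex (left) and female against male in each genotype (right), filled where the adjusted p is under 0.05. No point is filled on the left, and *Cnn1*, *Myh11* and *Myh9* are filled below 0 in both genotypes on the right.

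The larger differences among these genes lay between the female and the male lines. Calponin 1 (*Cnn1*), *Myh11* and *Myh9* were lower in female than in male MEFs in both genotypes, although *Myh11* in WT was lost in 8 of 15 alternative settings, and tropomyosin 1 (*Tpm1*) was higher in female WT MEFs. In WT MEFs 4 of the 10 genes passed an adjusted p of 0.05, 3 lower and 1 higher, beside 38.7% of all genes, 19.8% lower and 18.9% higher. In KO MEFs 3 passed, all of them lower, beside 38.7% of all genes and 19.7% lower. *Cnn1*, *Myh11* and *Myh9* were lower in both genotypes, as were 15.5% of all genes. With 10 genes these shares are descriptions, and no gene of the 10 passed the thresholds the study used (adjusted p under 0.01 and absolute log2 fold change over 1), which 4.54% of all genes passed in WT and 3.89% in KO MEFs. Sex, embryo line and depth cannot be told apart here, since the female libraries had 42986516 to 51481034 expected counts and the male ones 51521907 to 65454660.

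*Cnn1*, whose protein binds actin and tropomyosin and inhibits the myosin ATPase, had 240, 204 and 165 CPM in female WT and 176, 193 and 183 CPM in female KO MEFs. The male libraries had 382, 348 and 274 CPM in WT and 355, 368 and 268 CPM in KO. All 6 female libraries were below all 6 male libraries, even though both male replicate 3 libraries were the lowest of the males, and 16.9% of all genes had this order. *Cnn1* was 1.65-fold lower in female WT MEFs (log2 fold change -0.72, SE 0.16, adjusted p = 0.00435, edgeR, Benjamini-Hochberg adjustment). It was 1.80-fold lower in female KO MEFs (-0.85, SE 0.16, adjusted p = 0.00184, same test).

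*Myh9* also had all 6 female libraries, at 2818 to 3196 CPM, below all 6 male libraries, at 3342 to 3804 CPM. The male WT libraries had 3804, 3630 and 3354 CPM and the male KO libraries 3633, 3693 and 3342 CPM, so that replicate 3 was again the lowest in each. The difference was smaller than for *Cnn1*, with a log2 fold change of -0.30 in WT (SE 0.053, adjusted p = 0.00138, edgeR) and -0.18 in KO MEFs (SE 0.053, adjusted p = 0.0186).

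*Myh11* had 98.5, 70.2 and 113 CPM in male WT and 89.4, 82.8 and 86.1 CPM in male KO MEFs, against 39.5 to 82.5 CPM in the female libraries given above. The sexes overlapped through female WT replicate 1, which was above male WT replicate 2. The log2 fold change was -0.67 in WT (SE 0.24, adjusted p = 0.0462, edgeR) and -0.86 in KO MEFs (SE 0.24, adjusted p = 0.0160). Without both male replicate 3 libraries the difference in WT was -0.51 with an adjusted p of 0.140 and no longer passed, and it passed in 7 of 15 alternative settings in WT and 13 of 15 in KO MEFs. In WT the call was also lost with the replicate block (-0.68, adjusted p = 0.0593), with DESeq2 (adjusted p = 0.0685), with only the libraries compared (adjusted p = 0.0969), and without female replicate 3 (-0.44), female replicate 2 (-0.62), male replicate 1 (-0.63) or male replicate 3 (-0.51) alone, and in KO without female replicate 1 (-0.74) or 3 (-0.83). *Cnn1* passed in 15 of 15 settings in each genotype, and *Myh9* in 15 of 15 in WT and 12 of 15 in KO, where it was lost without female replicate 1 (-0.16), male replicate 1 (-0.17) or male replicate 2 (-0.16).

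*Tpm1*, which encodes a tropomyosin of muscle and of stress fibres, had 4636, 4548 and 4166 CPM in female WT and 3628, 3192 and 4123 CPM in male WT MEFs. The female libraries were all above the male ones, as for 25.5% of all genes, with female replicate 3 just above male replicate 3. The log2 fold change was 0.29 (SE 0.077, adjusted p = 0.0134, edgeR). In KO MEFs, with 4054, 3985 and 4282 CPM in female and 3592, 3531 and 3639 CPM in male libraries, it was 0.20 (SE 0.077, adjusted p = 0.0666) and did not pass, although every female library was again above every male one, as for 24.5% of all genes. The call in WT was lost, at an adjusted p of 0.0507, in 1 of 15 alternative settings, the fit of only the libraries compared. In KO MEFs *Tpm1* passed in 2 of the settings, the fit of only the libraries compared (adjusted p = 0.00873) and that without both male replicate 3 libraries (adjusted p = 0.0231). Whether the sex difference of any of the 10 differs between the genotypes is the same interaction as above, and none passed.

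The other 6 genes did not pass in either genotype. *Myl9* had 849, 782 and 645 CPM in female WT against 610, 598 and 633 CPM in male WT MEFs, a log2 fold change of 0.31 (SE 0.11, adjusted p = 0.0538, edgeR). Every female library was above every male one, as for 25.5% of all genes. *Myl9* passed in 5 alternative settings, namely with library size alone (adjusted p = 0.0271), with at least 10 counts in every library (0.0446), with only the libraries compared (0.0413), without both male replicate 3 libraries (0.0169) and without female WT replicate 3 (0.0179, log2 fold change 0.41). In KO MEFs it had 681, 674 and 726 CPM in female and 643, 655 and 485 CPM in male libraries. All were again higher in female, as for 24.5% of all genes. The log2 fold change was 0.22 (SE 0.11, adjusted p = 0.146, edgeR), and 0.094 without male KO replicate 3. *Acta2* differed by 0.19 (SE 0.088, adjusted p = 0.105) in WT and 0.12 (SE 0.088, adjusted p = 0.308) in KO MEFs by the same test, and in WT it passed without female WT replicate 3, at 0.30 with an adjusted p of 0.00942, and with library size alone, at 0.21 with an adjusted p of 0.0451. Without female WT replicate 1 it was 0.11 in WT, and in KO MEFs *Acta2* was 0.073 without female KO replicate 3 and 0.066 without male KO replicate 3. *Tagln*, *Tpm2* and *Cald1* had log2 fold changes between -0.11 and 0.09 in the 2 genotypes. Their female and male libraries overlapped in each genotype, except for *Cald1* in KO MEFs, where the female libraries had 3115, 3069 and 3363 CPM and the male ones 3517, 3436 and 3374 CPM. Every female library was thus below every male one, as for 25.7% of all genes, with a log2 fold change of -0.11 (SE 0.059, adjusted p = 0.153, edgeR). *Actg2* had 382, 359 and 371 CPM in male WT and 364, 390 and 327 CPM in male KO MEFs, beside the female values given above. Its log2 fold change was -0.06 (SE 0.24, adjusted p = 0.863, edgeR) in WT and -0.41 (SE 0.24, adjusted p = 0.197) in KO MEFs, and the groups overlapped in both. The value in WT was -0.36 without female WT replicate 1 and 0.16 without female WT replicate 3, and that in KO was -0.22 without female KO replicate 1 and -0.65 without female KO replicate 2.

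The genes that work with these 10 were described by fixed lists. None of the 11 lists of related genes and cell markers had a gene past an adjusted p of 0.05 in KO against WT MEFs of either sex. Between the sexes, the list of other thin filament and crosslinking genes had 5 of 11 higher and 2 lower in female WT MEFs. These included the non-muscle relatives *Tpm3* (log2 fold change 0.28, SE 0.033) and *Tagln2* (0.28, SE 0.052), both higher, and *Flna*, the filamin A crosslinker (-0.25, SE 0.059), lower. In KO MEFs 5 were higher and 1 lower. Of the myosin regulators, 2 of 11 tested were higher and 3 lower in WT, and 2 higher and 5 lower in KO MEFs. *Myh10*, the heavy chain of non-muscle myosin IIB, was lower with *Myh9*, at -0.65 (SE 0.16) in WT and -0.56 (SE 0.16) in KO MEFs. *Ppp1r14a*, an inhibitor of myosin phosphatase, was lower, at -1.21 (SE 0.26) and -1.14 (SE 0.26), at levels of 0.907 to 3.86 CPM. The regulatory light chain gene *Myl12b* was higher, at 0.36 (SE 0.11) and 0.45 (SE 0.11).

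Focal adhesion genes had 5 of 13 higher and 2 lower in female WT, and 7 higher and 2 lower in female KO MEFs. The largest was *Zyx*, the zyxin gene, at 0.57 (SE 0.085) in WT and 0.66 (SE 0.085) in KO MEFs. Of 11 tested genes of smooth muscle differentiation, 1 was higher and 4 lower in WT, and 1 higher and 5 lower in KO MEFs. The lower ones in WT included *Hspb6*, the small heat shock protein of smooth muscle, at -0.89 (SE 0.18), and *Aoc3*, a surface amine oxidase of smooth muscle and fat cells, at -2.56 (SE 0.52), although at no more than 2.97 CPM. Of SRF and its 3 coactivators, *Srf* itself did not pass (-0.05 in WT and 0.05 in KO MEFs). *Mkl1* was higher, at 0.27 (SE 0.065) and 0.28 (SE 0.065), as was *Myocd*, at 1.06 (SE 0.24) and 0.84 (SE 0.24), and *Mkl2* was lower in WT at -0.23 (SE 0.057). All of these calls are adjusted p-values under 0.05 by the edgeR test over the 15387 genes, of which 38.7% passed.

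Markers of cell types were also compared between the sexes, where 38.7% of all genes passed an adjusted p of 0.05 in each genotype. Of all genes, 19.8% were lower and 18.9% higher in female WT MEFs, and 19.7% and 18.9% in female KO MEFs. The summed level of 6 pericyte markers was 346 to 380 CPM in the female and 497 to 679 CPM in the male libraries, and 3 of 6 were lower in female MEFs of each genotype, led by *Cspg4* at -1.79 (SE 0.17) in WT. The summed level of 10 macrophage markers was 37.3 to 118 CPM in female and 8.55 to 16.3 CPM in male libraries, with 9 of 10 higher in WT and 10 of 10 in KO MEFs. Epithelial markers summed to 20.3 to 64.5 CPM in female and 5.47 to 15.05 CPM in male libraries, with 6 of 6 tested higher in WT and 1 of 6 in KO. The sum of 64.5 CPM was that of female WT replicate 3. *Krt5* had 0.982, 2.30 and 14.3 CPM in female WT replicates 1 to 3, and *Cdh1* had 0.654, 0.530 and 4.43 CPM. *Krt18*, at 15.1, 19.4 and 17.6 CPM, was not highest there. Much of the WT level of the other markers thus lay in 1 library. Endothelial markers summed to 25.8 to 37.3 CPM in female and 17.4 to 23.9 CPM in male libraries, with 4 of 6 tested higher in WT and 1 of 6 in KO. Those higher in WT were again highest in female WT replicate 3, such as *Cdh5* at 0.701, 0.309 and 2.00 CPM and *Kdr* at 19.9, 23.3 and 29.4 CPM. Skeletal muscle markers summed to 69.1 to 155 CPM in female and 66.7 to 117 CPM in male libraries, and 7 of 10 tested were higher in WT and 8 of 10 in KO. Of the fibroblast markers, 3 of 10 were lower in WT, and in KO 4 were lower and 1 higher. Apart from *Pln* of the smooth muscle list in female WT, no listed gene was at 0 in all libraries of a group. The part of these markers in the differences of *Cnn1*, *Myh11*, *Myh9* and *Tpm1* was not tested.

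The genes varied together from library to library. Co-variation was taken as Pearson's r of log2(CPM + 1) over the 6 libraries of each sex, WT and KO together, for the 45 pairs of the 10 genes. In female MEFs the median r was 0.824, and 24 pairs (53.3%) were above 0.8, as were 3.55% of all pairs of tested genes. *Acta2* and *Myl9* had the highest r, 0.986, followed by *Cnn1* and *Myh11* (0.974), *Actg2* and *Myh11* (0.973) and *Tagln* and *Cald1* (0.972). *Myh9* stood apart. Its median r with the other 9 was 0.074, and without it the 36 remaining pairs had a median of 0.865 and none below 0.556. The libraries of a sex share their depth range, and all share 1 normalization, so these values are descriptions.

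In male MEFs the genes split. The median r was 0.625, with 12 pairs (26.7%) above 0.8 beside 6.55% of all gene pairs, and 6 pairs below 0. *Tagln* and *Tpm2* varied together (0.990), as did *Acta2* and *Tagln* (0.946) and *Tpm1* and *Myh11* (0.952). *Cnn1* and *Myh9* followed each other (0.990). Their r was 0.692 and 0.682 with *Actg2*, 0.604 and 0.546 with *Myl9*, 0.360 and 0.359 with *Acta2*, near 0 with *Tagln* and *Tpm2*, and negative with *Tpm1* (-0.55 and -0.53), *Cald1* and *Myh11*. Both were low in male replicate 3 of either genotype, whereas *Tpm1* and *Cald1* were highest of all male WT libraries in replicate 3. Without both male replicate 3 libraries, over the remaining 4, *Cnn1* and *Myh9* still had r = 0.959, but *Cnn1* and *Acta2* had r = 0.880 and the median of the 45 pairs was 0.720 with 1 pair below 0.

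**Figure D4:**
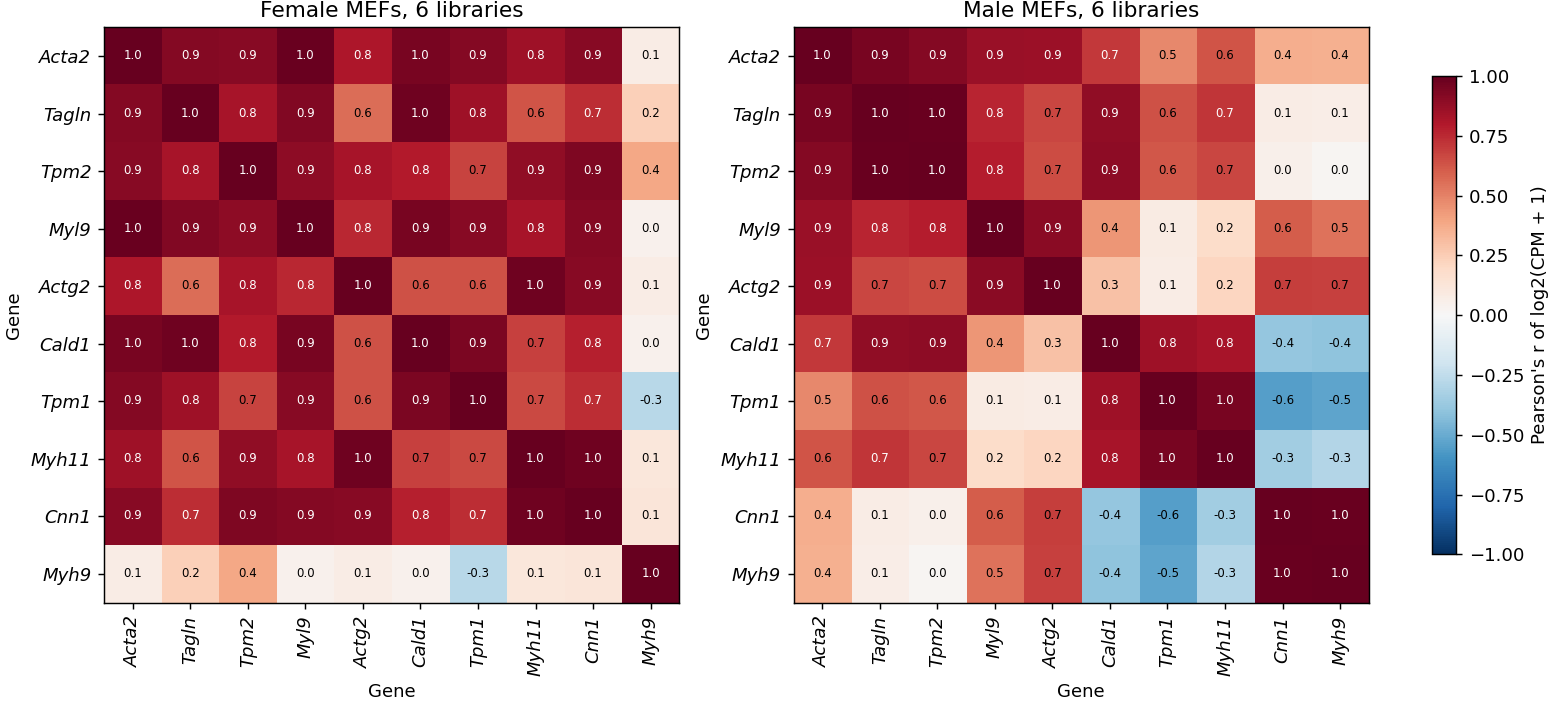
Pearson's r of log2(CPM + 1) between the 10 genes over the 6 female (left) and 6 male (right) libraries, rounded to 1 decimal in each cell. *Myh9* alone is pale in the female panel (median r 0.074), and in the male panel *Cnn1* and *Myh9* have r = 0.990 with each other and negative r with *Tpm1*, *Cald1* and *Myh11*.

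Fixed pairs were tested by exact permutation over the 6 libraries of each sex, 8 tests in all with Benjamini-Hochberg adjustment. *Acta2* and *Tagln* passed in female MEFs (r = 0.920, two-sided exact permutation p = 0.0167, adjusted 0.0444) and in male MEFs (r = 0.946, exact p = 0.00833, adjusted 0.0444). Their Spearman rank correlation was 0.886 (adjusted exact p = 0.0889) and 0.943 (adjusted exact p = 0.0667). Without the 2 libraries farthest from the median of *Acta2*, r was 0.898 and 0.888. *Acta2* and *Cnn1* passed in female MEFs (r = 0.912, exact permutation p = 0.0167, adjusted 0.0444, Spearman rank correlation 0.943 with an adjusted exact p of 0.0667), but r was 0.585 without female WT replicates 1 and 2, so this relation rests on those libraries. In male MEFs the same pair had r = 0.360 (exact permutation p = 0.486, adjusted 0.556), which turned to -0.74 without male KO replicate 3 and male WT replicate 2. With library size alone in place of TMM, the 2 calls of *Acta2* with *Tagln* and that of *Acta2* with *Cnn1* were lost (adjusted exact p of 0.0667 to 0.0741). *Acta2* and *Myh11* reached 0.846 in female (adjusted exact p = 0.0889) and 0.625 in male MEFs (adjusted exact p = 0.270), and 0.436 and 0.956 without the 2 farthest libraries. *Tagln* and *Cnn1* reached 0.740 in female (adjusted exact p = 0.124) and 0.075 in male MEFs (adjusted exact p = 0.825), and 0.226 and 0.674 without the 2 farthest. The permutations treat the 6 libraries of a sex as exchangeable, although same-numbered male WT and KO libraries deviated together. The difference between the sexes in r was not tested.

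**Figure D5:**
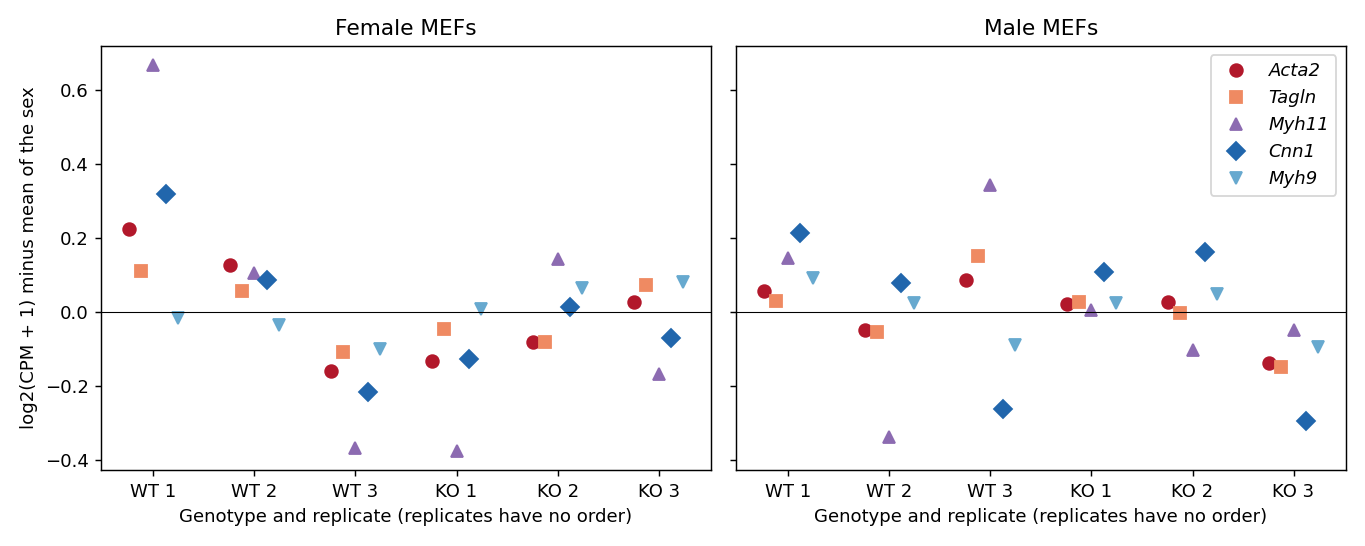
Log2(CPM + 1) of 5 genes in each library minus the mean of the 6 libraries of that sex, female (left) and male (right). In male MEFs *Cnn1* and *Myh9* are lowest in both replicate 3 libraries, while *Acta2*, *Tagln* and *Myh11* are highest in WT replicate 3.

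Genes outside the list with the most similar profile were sought after removing the mean of each sex and genotype, by r over the 12 libraries with the mean standardised profile of the 10 genes. Among 8826 other genes with a mean of at least 10 CPM, the median r was 0.078 and 11 genes reached 0.9. The 5 highest were *Atf6*, a transcription factor of the unfolded protein response (r = 0.949), *Vcl*, the focal adhesion protein vinculin (0.948), *Arhgap1*, a GTPase-activating protein (0.941), *Lmod1*, the actin nucleator leiomodin 1 of smooth muscle (0.941), and *Nptn*, the adhesion protein neuroplastin (0.936).

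The gene positions on mm9 are chromosome 19, 34315580 to 34329826 (minus strand) for *Acta2* (ENSMUSG00000035783.8) and chromosome 9, 21903725 to 21914074 (plus strand) for *Cnn1* (ENSMUSG00000001349.4). *Tagln* (chromosome 9, 45737711 to 45744141, minus strand) overlaps the end of *Pcsk7* on the plus strand, and *Cald1* contains 4 smaller annotated genes on the minus strand. *Myh9* contains an annotated U6 small nuclear RNA gene on its own strand. The sources do not say that counting used strand, so reads there cannot be told apart. *Myh9* is on chromosome 15, 77591017 to 77672605 (minus strand), and *Myh11* on chromosome 16, 14194620 to 14291501 (minus strand). Of all stretches of 50 bases in the annotated protein-coding transcripts, 0.404% of *Acta2* also occur in *Actg1*, 1.082% of *Myh9* in *Myh10* or *Myh11*, 0.392% of *Myh11* in *Myh9* or *Myh10*, and none of the other 7 genes in another gene. Expected counts were whole numbers, within 0.005, in all 12 libraries for *Tagln*, *Cnn1*, *Tpm1*, *Tpm2* and *Cald1*, in 11 for *Myl9*, in 9 for *Actg2*, in 2 for *Acta2* and in none for *Myh9* and *Myh11*. Where a count is not whole, the split of reads shared with other genes is an estimate.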

How the data were processed

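Per the labels and the methods, reads were aligned with Bowtie2 and quantified with RSEM 1.2.29 on mm9, and the authors deposited the unscaled expected counts of each gene. Here they were rounded and fitted over the 12 libraries with edgeR 4.0.16 (R 4.3.3), TMM and filterByExpr, with 1 mean per sex and genotype. The quasi-likelihood test was adjusted by Benjamini-Hochberg over the 15387 genes tested. The common biological coefficient of variation was 0.114, with 8 residual degrees of freedom. Depth was 42986516 to 65454660 expected counts, which makes counting error small for genes at these levels. DESeq2 1.42.0, other scalings, filters and samples, the replicate block and each library left out were alternatives. Correlations used log2(CPM + 1) and SciPy 1.17.1.

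In the male samples same-numbered WT and KO libraries deviated together (r of 0.237 to 0.495 in 3 pairs). WT replicate 1 with KO replicate 2 (0.221) and WT replicate 2 with KO replicate 1 (0.163) did so too. These values set replicate 3 apart but do not settle whether replicates 1 and 2 were paired by number. Replicate numbers did not pair the female samples (-0.258 to -0.132). The genes, the lists of related genes and markers, and the rule for naming genes (all 10, *Firre*, up to 3 called genes of the largest change per list, and the 5 most similar profiles) were chosen with earlier results of these data known. The edgeR procedure was tested on simulated data. Hi-C files were not used here.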

Additional observations from a re-analysis of the deposited data

How the results depend on the processing

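None of the 10 genes was called in KO against WT in either sex, or in the difference between the sexes, under any of the alternatives run, and the replicate block changed no such call. Over all genes, KO against WT in female MEFs gave 1 gene past an adjusted p of 0.05 with at least 10 counts in every library, 1 with the replicate block within each sex (an alternative chosen after seeing the data), 9 without both male replicate 3 libraries (also chosen after seeing the data), 4 with only the libraries compared and 25 with DESeq2, against 2. In male MEFs these were 0, 0, 1, 2 and 5, against 1. The thresholds of the study left 0 genes with the replicate block in either sex, with the block within each sex, with at least 10 counts and with only the libraries compared, and 4 and 2 genes with DESeq2, against 1 in each sex, the targeted gene. The difference between the sexes gave 3 genes with DESeq2 (1 past the thresholds of the study) and 1 without both male replicate 3 libraries, against 0, and 0 to 1 with single libraries left out. Where a count moved, the cause was not tested.

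Without both male replicate 3 libraries the log2 fold change of KO against WT in male MEFs turned above 0 for *Acta2* (0.016), *Tagln* (0.020), *Myl9* (0.10), *Tpm1* (0.059), *Tpm2* (0.042), *Actg2* (0.022), *Myh11* (0.025) and *Cald1* (0.023), and the difference between the sexes turned below 0 for *Tagln* (-0.064) and *Tpm2* (-0.073). With single libraries left out, the male effect ran from -0.14 to 0.11 for *Cnn1*, -0.12 to 0.082 for *Myl9*, -0.11 to 0.073 for *Tpm1*, -0.10 to 0.025 for *Actg2*, -0.064 to 0.027 for *Myh9*, -0.30 to 0.029 for *Myh11* and -0.075 to 0.013 for *Cald1*. The female effect ran from -0.10 to 0.0061 for *Tagln* and -0.11 to 0.029 for *Tpm2*. The difference between the sexes ran from -0.18 to 0.0083 for *Acta2*, -0.017 to 0.091 for *Tagln*, -0.25 to 0.014 for *Cnn1*, -0.21 to 0.0052 for *Myl9*, -0.041 to 0.093 for *Tpm2*, -0.41 to 0.12 for *Myh11* and -0.082 to 0.014 for *Cald1*.

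For female against male, 3 to 5 of the 10 genes passed in WT MEFs with single libraries left out, and 1 to 3 in KO MEFs. Over the other settings 3 to 6 passed in WT, the most with library size alone, and 3 to 4 in KO MEFs. Without female KO replicate 1 only *Cnn1* passed in KO MEFs. All genes past the thresholds of the study numbered 432 to 661 in WT and 329 to 569 in KO MEFs with single libraries left out, and 370 in KO MEFs with only the libraries compared. *Tagln* ran from -0.00062 to 0.11 and *Actg2* from -0.36 to 0.16 in WT MEFs with single libraries left out. *Tpm2* ran from -0.16 to -0.025 and *Cald1* from -0.13 to -0.033 in WT, and *Tpm2* from -0.12 to -0.034 in KO MEFs. With the replicate block 3 of the 10 genes passed in each genotype, and *Myh11* in WT was lost.

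With library size alone, the exact adjusted p of *Acta2* with *Tagln* (r of 0.912 in female and 0.937 in male MEFs) and of *Acta2* with *Cnn1* in female MEFs (0.901) rose above 0.05, and r of *Tagln* with *Cnn1* in male MEFs was -0.076. Without the 2 libraries farthest from the median, r in male MEFs was -0.74 for *Acta2* with *Cnn1*, 0.956 for *Acta2* with *Myh11* and 0.674 for *Tagln* with *Cnn1*, and in female MEFs 0.436 and 0.226 for the latter pairs. The lowest expected count of any of the 10 genes in a library was 1745, for *Myh11*.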
